A study of Mus musculus with 4 samples.

Results

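The genes of the interferon response and of antigen presentation were followed in iEpiSCs (mouse epiblast stem cells induced in culture) of genotype c-Jun-/- and in wild-type iEpiSCs. c-Jun is a protein that forms the AP-1 transcription factor together with Fos and related proteins. The set holds 43 named genes out of the 29267 gene identifiers in the expression tables: interferon receptors and their kinases, the transcription factors they use, sensors of viral RNA, antiviral effectors, and the machinery that loads peptides onto MHC class I. It was chosen by gene name for these known roles. Of the 43 genes, 37 had enough counts to be tested, among 12598 tested genes in all, and 6 (Irf7, Nlrc5, Dhx58, Oasl1, Mx1 and Rsad2) did not.

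RNA was sequenced from 4 libraries. Replicates 2 and 3 of genotype c-Jun-/- were set against replicates 2 and 3 of wild-type cells, and for all of them mouse embryonic stem cells had been converted to the primed state of the epiblast after implantation. Cells of both genotypes were grown with Activin A and bFGF (20 ng/ml each), and the conversion medium also held the Wnt pathway inhibitors IWR-1 at 2.5 µM and XAV939 at 2 µM. The labels give no interferon treatment or infection, do not say how Jun was mutated or how many clones were used, and do not state what separates the replicates of a genotype. P-values therefore measure the spread between these libraries only, which may be technical, and genotype cannot be told apart from cell line.

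Interferons are secreted proteins that warn cells of infection. Type I interferons bind the receptor made of Ifnar1 and Ifnar2, whose kinases Jak1 and Tyk2 activate a complex that holds Stat2 and Irf9. The complex binds the interferon-stimulated response element (ISRE) in front of antiviral genes. Interferon gamma binds Ifngr1 and Ifngr2 and acts through the gamma-activated site (GAS). Pluripotent stem cells are known for a weak response to interferon, while some Ifitm genes are active in them without it.

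Promoters show the sequence side of the set, shown for 3 genes that were higher in c-Jun-/- cells (Ifitm3, Ddx58 and Bst2). Among the genes of the set that differed between genotypes, only these 3 were found to hold the ISRE core described here. Ifitm2, which did not pass the threshold, was added after its values were seen, for contrast with Ifitm3. Each promoter is the 300-base RefSeq window on GRCm38.p6 from 250 bases before to 50 bases after the annotated start, written 5′ to 3′ on the strand of the gene. Capitals mark the ISRE core, which is GAAA, any 2 bases and GAAA again, searched on both strands. The windows lie on the minus strand at chr7:141010695-141010994 (Ifitm3), chr7:140955912-140956211 (Ifitm2), chr4:40239776-40240075 (Ddx58) and chr8:71537423-71537722 (Bst2).
Ifitm3 promoter: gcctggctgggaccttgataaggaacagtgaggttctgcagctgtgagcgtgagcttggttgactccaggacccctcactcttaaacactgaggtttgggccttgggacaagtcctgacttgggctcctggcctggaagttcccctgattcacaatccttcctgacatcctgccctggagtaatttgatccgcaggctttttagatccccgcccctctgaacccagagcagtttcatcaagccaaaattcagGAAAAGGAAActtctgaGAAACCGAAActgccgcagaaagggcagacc
Ifitm2 promoter: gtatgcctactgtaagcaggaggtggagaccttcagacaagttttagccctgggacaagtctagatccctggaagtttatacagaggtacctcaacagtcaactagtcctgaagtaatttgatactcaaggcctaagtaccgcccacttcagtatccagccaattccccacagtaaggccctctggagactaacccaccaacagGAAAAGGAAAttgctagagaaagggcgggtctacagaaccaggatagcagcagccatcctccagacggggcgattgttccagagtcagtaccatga
Ddx58 promoter: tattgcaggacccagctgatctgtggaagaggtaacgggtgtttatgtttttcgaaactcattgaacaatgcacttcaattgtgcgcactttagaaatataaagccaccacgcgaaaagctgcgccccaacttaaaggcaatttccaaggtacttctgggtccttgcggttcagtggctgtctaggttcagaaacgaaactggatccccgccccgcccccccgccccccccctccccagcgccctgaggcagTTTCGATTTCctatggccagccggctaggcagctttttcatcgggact
Bst2 promoter: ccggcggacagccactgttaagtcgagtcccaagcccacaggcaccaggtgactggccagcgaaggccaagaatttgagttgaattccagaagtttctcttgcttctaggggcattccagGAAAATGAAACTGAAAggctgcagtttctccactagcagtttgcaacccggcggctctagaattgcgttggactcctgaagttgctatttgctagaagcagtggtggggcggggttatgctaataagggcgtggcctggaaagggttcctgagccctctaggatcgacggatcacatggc

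Ifitm3 held 2 cores that begin at bases 253 and 270 of its window, past the annotated start, and Ifitm2 held 1 that begins at base 205. The Ifitm1 window held none, but its annotated RefSeq start lies 855 bases from the GENCODE start of the gene, against 26 bases for Ifitm2 and Ifitm3. Ddx58 held 1 at base 253, read on the other strand, and Bst2 held 2 that overlap, at bases 121 and 127. RefSeq windows were found for 37 of the 43 genes, and the core was present in 13 of these (35.1%), against 3.99% of all 27025 genes with a window. By the threshold used below, 3 of the 8 genes that differed between genotypes and have a window held the core, as did 10 of the 29 other genes of the set. These 3 are the higher genes shown above. Of the other higher genes, Ifitm1 and Psmb10 held none, and Parp14 had no window. The GAS letters TTCNNNGAA, also on both strands, were in a window of 10 of the 37 genes (27.0%), against 9.55% of all genes. In Ifitm3 and Bst2 a GAS overlapped an ISRE core. The AP-1 letters TGANTCA were in 3 of the 37 genes (8.11%), namely Ifitm3, Ifit3 and Rsad2, against 8.97% of all genes.

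In c-Jun-/- cells a few antiviral genes were higher, the loading factor Tapbp, the proteasome subunit Psmb8 and the receptor chain Ifngr1 were lower, and none of the tested transcription factors passed the threshold. Of the 37 tested genes, 6 were higher in c-Jun-/- cells (Ifitm3, Ddx58, Parp14, Bst2, Ifitm1 and Psmb10) and 3 were lower (Tapbp, Psmb8 and Ifngr1), by edgeR's quasi-likelihood test with Benjamini-Hochberg adjustment over all tested genes and a threshold of 0.05. That is 24.3% of the tested genes of the set, beside a background of 15.5% of all tested genes (8.21% higher and 7.32% lower). Of the 37, 9 lay higher in both c-Jun-/- libraries than in both wild-type libraries and 10 lay lower, beside 27% and 26.9% of all tested genes. The median log2 fold change of the set was -0.0028, and that of all tested genes was 0.0015. The median size of a fold change, regardless of sign, was 0.29 on the log2 scale in the set and 0.19 over all tested genes. Fold changes are log2 ratios of c-Jun-/- over wild type (n = 2 libraries each), and ± is their standard error. Levels within a gene are given in CPM (counts scaled to a common library total), and levels are compared between genes in TPM, the deposited transcript level that corrects for gene length.

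A few facts of the whole series touch these values. The libraries held from 4666559 to 6341342 expected counts, and 3 counts, which a gene listed at 0 could still hold, stood for 0.473 to 0.643 CPM. Jun itself had 28.9 and 29.6 CPM in c-Jun-/- cells, against 106 and 121 CPM in wild-type cells, so some transcript was still assigned to it. On chromosome 8, 57.2% of the tested genes were higher in c-Jun-/- cells, with a median log2 fold change of 0.51. Bst2, Psmb10 and Nlrc5 lie there, and the values of Bst2 and Psmb10 are therefore also given after that chromosome's genes were centred on their median. Without chromosome 8, 4 of 35 tested genes of the set were higher and 3 were lower, beside a background of 5.4% higher and 7.68% lower among the 11914 tested genes outside it. In bulk RNA, fewer cells of a type and less RNA per cell cannot be told apart.

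Markers of cell state and of other cell types also differed between the genotypes, and their part in the results was not tested. All 8 primed epiblast markers were detected, and their sum stood at 2397 to 2455 CPM in c-Jun-/- cells and at 2594 to 2637 CPM in wild-type cells. By edgeR at the same threshold 5 of the 8 were lower in c-Jun-/- cells and 1, Pou5f1, was higher. Otx2 had 43.8 and 49.4 CPM in c-Jun-/- cells, against 103 and 106 CPM in wild-type cells. Sox2 had 22.4 and 20.4 CPM in c-Jun-/- cells, against 52.8 and 42.0 CPM in wild-type cells. These transcription factors of the epiblast were thus lower by more than the spread of replicates, while the sum was carried by the more abundant T, Dnmt3b and Pou5f1. The 6 naive markers summed to 17.3 to 18.7 CPM in c-Jun-/- cells and 13.6 to 14.6 CPM in wild-type cells, with Nr0b1 at 0 in every library. Only Tbx3 among them passed, with 18 and 14 counts in c-Jun-/- cells and 0 counts in both wild-type libraries.

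The 8 fibroblast markers summed to 66.6 to 70.1 CPM in c-Jun-/- cells and 70.7 to 78.1 CPM in wild-type cells, all detected, with 1 higher and 2 lower. Col3a1 had 7.30 and 4.57 CPM in c-Jun-/- cells, against 0.396 and 0.560 CPM in wild-type cells, and was the higher one. Postn, with 7.14 and 12.8 CPM in c-Jun-/- cells and 23.3 and 23.9 CPM in wild-type cells, and Dcn, with 1.90 and 2.39 CPM in c-Jun-/- cells and 5.54 and 7.28 CPM in wild-type cells, were lower. The 5 endothelial markers summed to 15.2 to 15.4 CPM in c-Jun-/- cells and 8.90 to 13.99 CPM in wild-type cells, with Emcn at 0 and none past the threshold. The 10 leukocyte markers summed to 24.1 to 29.1 CPM in c-Jun-/- cells and 28.3 to 34.5 CPM in wild-type cells, almost all from Cd68, with Tyrobp, Lyz2 and Cd3e at 0 in every library.

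**Figure D1:**
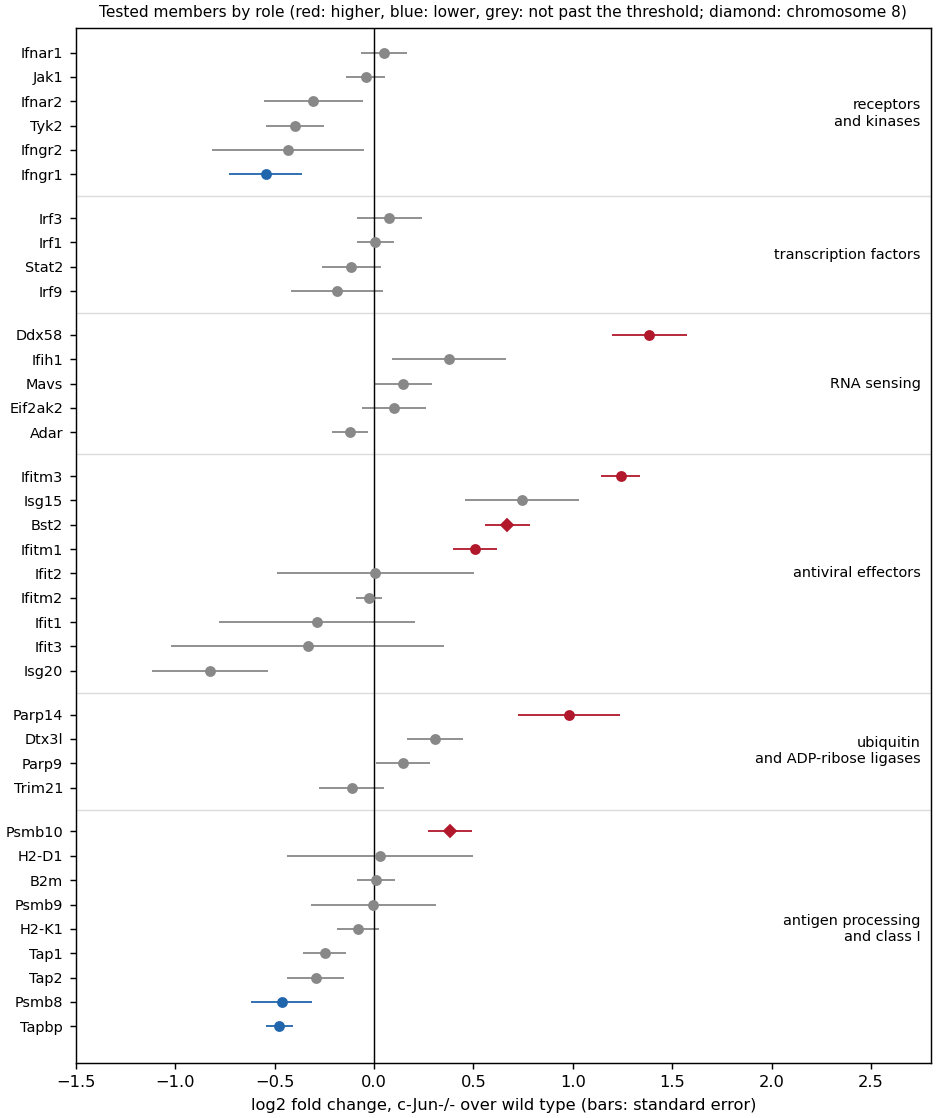
Log2 fold change of c-Jun-/- over wild type for the 37 tested genes of the set, grouped by role, with bars of 1 standard error (n = 2 libraries per genotype). Ddx58 and Ifitm3 lie farthest to the right, and the transcription factors lie close to 0.

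The ligands were at or near 0. Of 21 interferon genes looked up (the alpha, beta, epsilon, kappa, zeta, gamma and lambda genes), 20 had no count in any library, and Ifna16 had 1 count in c-Jun-/- replicate 2. Each such 0 allows up to 3 counts per library. A secreted source outside the cells was not measured.

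The receptor genes were transcribed in both genotypes, and Ifngr1, the ligand-binding chain of the interferon gamma receptor, was lower in c-Jun-/- cells. Ifngr1 (chr10:19591949-19610229, plus strand, GRCm38) had 18.9 and 19.4 CPM in c-Jun-/- cells, against 30.1 and 25.7 CPM in wild-type cells. The genotypes did not overlap, and the log2 fold change was -0.55 ± 0.18 (edgeR adjusted p = 0.0402). This call was lost under 5 of 12 alternatives, with adjusted p of 0.141 without c-Jun-/- replicate 2, 0.0832 without c-Jun-/- replicate 3 and 0.241 without wild-type replicate 2 (0.0218 to 0.241 over all alternatives).

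The kinase Jak1 had the highest mean level over the 4 libraries on the receptor side, at 42.0 and 33.4 TPM in c-Jun-/- cells and 39.6 and 42.1 TPM in wild-type cells. Within c-Jun-/- cells the mean of Ifnar1 was slightly higher, at 38.2 TPM beside 37.7 TPM for Jak1. The genotypes overlapped for Jak1, at a log2 fold change of -0.04 ± 0.10. Ifnar1 (0.05), Ifnar2 (-0.30) and Ifngr2 (-0.43) did not pass, and neither did the kinase Tyk2 at -0.40 ± 0.14 (edgeR adjusted p = 0.0615). It passed on total counts without TMM (0.0499) and with the replicate block (0.0375; 0.0375 to 0.297 over all alternatives). Tyk2 did not overlap between genotypes, with 32.5 and 34.1 CPM in c-Jun-/- cells and 45.5 and 42.2 CPM in wild-type cells. Ifnar2 varied more within wild type, where it had 11.9 and 21.6 CPM, than between the genotype means.

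None of the 4 tested transcription factors passed the threshold by edgeR, none had an unadjusted p under 0.05, and DESeq2 and limma also called none. Irf1, which interferon gamma induces, was the most abundant of them, with 141 and 160 TPM in c-Jun-/- cells and 140 and 128 TPM in wild-type cells. Its log2 fold change was 0.0067 ± 0.095. Irf3, the factor that sensors activate, stood at 0.08 ± 0.17, and Irf9 and Stat2, partners in the complex that binds the ISRE, at -0.19 ± 0.23 and -0.11 ± 0.15.

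Nlrc5 and Irf7 had too few counts for the test. Nlrc5, which switches on the class I genes, had 23 and 8 counts in c-Jun-/- cells, against 1 and 0 counts in wild-type cells. The ratio of the summed counts, scaled by library size, was 29.2 with an exact 95% interval of 4.87 to 1190 that covers counting error only. Nlrc5 lies on chromosome 8 (chr8:94434356-94527272, plus strand), and with no filter on low counts it passed the threshold (edgeR adjusted p = 0.00203). A value of Nlrc5 with that chromosome centred was not computed, and most of its c-Jun-/- counts came from replicate 2. Irf7, the factor that amplifies type I interferon, had 0 and 1 counts in c-Jun-/- cells, against 2 and 10 counts in wild-type cells, a ratio of 0.0785 (0.0018 to 0.53). With no filter on low counts Irf7 stood at -3.30 ± 1.76 and did not pass (edgeR adjusted p = 0.290). Most of the wild-type counts came from replicate 3.

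Among the sensors of viral RNA, Ddx58 was higher in c-Jun-/- cells and the 4 other tested genes did not pass, beside 8.21% of all tested genes higher. Ddx58 (chr4:40203773-40239828, minus strand) encodes RIG-I, which recognises RNA ends typical of viruses. It had 32.7 and 35.2 CPM in c-Jun-/- cells, against 12.7 and 13.2 CPM in wild-type cells. Both c-Jun-/- libraries lay well above both wild-type libraries, a 2.61-fold difference (1.39 ± 0.19, edgeR adjusted p = 1.63e-06), and all 12 alternatives kept the call. No 75-base stretch of its transcripts was shared with another gene.

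Ddx58 was higher without its closest relatives passing the threshold. Ifih1, the related sensor MDA5, had 15.1 and 8.70 CPM in c-Jun-/- cells, against 8.70 and 9.89 CPM in wild-type cells, so that only c-Jun-/- replicate 2 stood apart (0.38 ± 0.29). Dhx58, the regulator LGP2, had 10 and 9 counts in c-Jun-/- cells and 5 and 10 counts in wild-type cells and was not tested. Mavs, the adaptor through which these helicases signal, stood at 0.15 ± 0.14, and the RNA-activated kinase Eif2ak2 at 0.10 ± 0.16. Adar, which edits double-stranded RNA, had the highest level of the sensors, at 44.3 and 45.7 TPM in c-Jun-/- cells and 47.3 and 49.3 TPM in wild-type cells. Its log2 fold change was -0.12 ± 0.09.

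**Figure D2:**
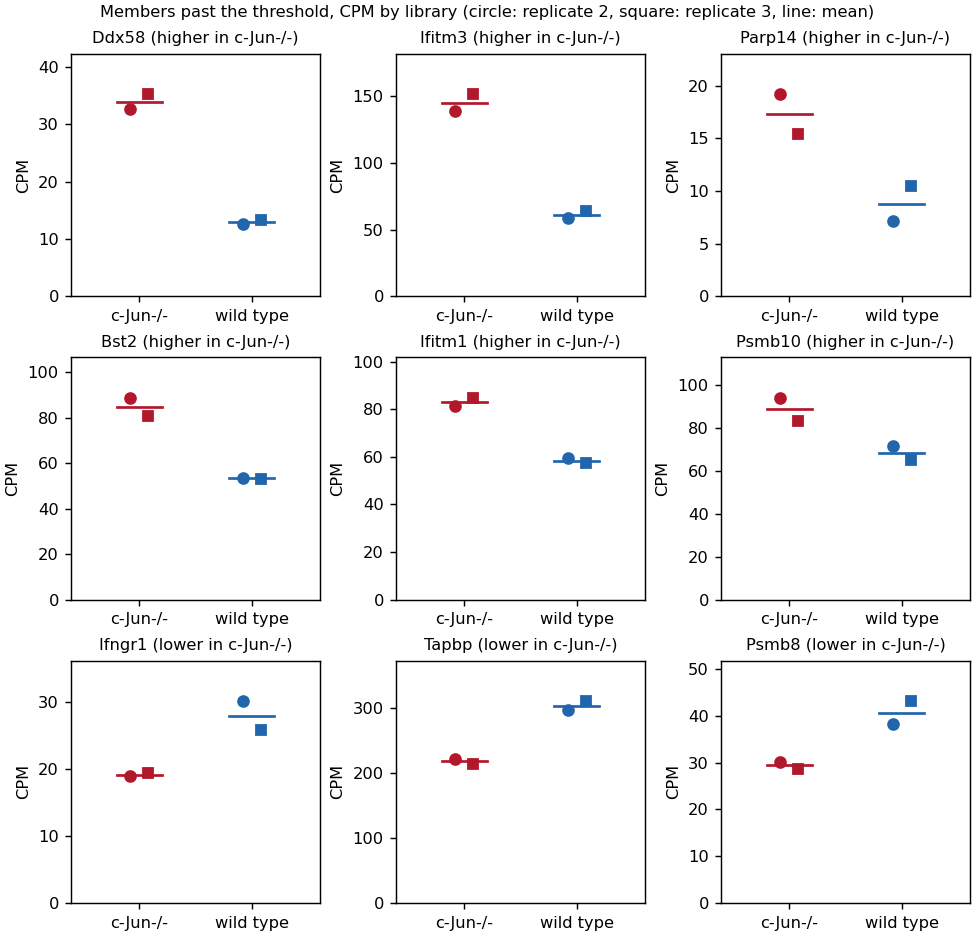
CPM in each library of the 9 genes of the set that passed the threshold, c-Jun-/- on the left and wild type on the right of each panel, with lines at the means of 2 libraries. In none of the panels do the genotypes overlap, and Ddx58 and Ifitm3 show the widest separation relative to the wild-type level.

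The antiviral effectors were led by the Ifitm genes. Of 9 tested effectors 3 were higher in c-Jun-/- cells (Ifitm3, Ifitm1 and Bst2) and none was lower by edgeR, DESeq2 or limma, although 5 had an unadjusted edgeR p under 0.05. Over all tested genes, 8.21% were higher and 27% had an unadjusted p under 0.05. Ifitm proteins are small membrane proteins that block the fusion of viruses with the cell. In the mouse embryo Ifitm3 is also known as fragilis, a marker of germ cell precursors. Ifitm1, Ifitm2 and Ifitm3 lie in one cluster on chromosome 7, with gaps of 11233 bases between Ifitm2 and Ifitm1 and 39760 bases between Ifitm1 and Ifitm3. Of the other Ifitm genes, Ifitm5, Ifitm6, Ifitm7 and Ifitm10 had at most 3 counts in any library.

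Ifitm3 (chr7:141009586-141010770, minus strand) had 139 and 151 CPM in c-Jun-/- cells, against 58.7 and 63.6 CPM in wild-type cells. The c-Jun-/- libraries were more than the spread of replicates above the wild-type libraries, 2.36-fold on average (1.24 ± 0.10, edgeR adjusted p = 6.41e-11). Ifitm1 (chr7:140967221-140969825, plus strand) had 81.2 and 84.8 CPM in c-Jun-/- cells, against 59.3 and 57.3 CPM in wild-type cells. It was 1.42-fold higher without overlap (0.51 ± 0.11, edgeR adjusted p = 0.00115), and both genes kept their calls under all 12 alternatives. Ifitm2 (chr7:140954837-140955987, minus strand), the gene of the set with the highest TPM, had 302 and 329 CPM in c-Jun-/- cells, against 310 and 330 CPM in wild-type cells. Its genotypes overlapped, and the log2 fold change was -0.02 ± 0.07 (edgeR adjusted p = 0.871).

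The share of Ifitm3 among the Ifitm transcripts was higher in both c-Jun-/- libraries than in either wild-type library. Ifitm3 made up 26.6% and 26.8% of the counts of the 3 genes in c-Jun-/- cells (Wilson 95% intervals 25.1% to 28.1% and 25.1% to 28.5%), against 13.7% and 14.1% in wild-type cells (12.3% to 15.2% and 12.8% to 15.6%). Ifitm2 made up 57.8% and 58.2% in c-Jun-/- cells and 72.4% and 73.2% in wild-type cells. The Ifitm1 share was 15.57% and 15.02% in c-Jun-/- cells and 13.86% and 12.71% in wild-type cells. These intervals cover counting error only. The 3 genes together had 522 and 565 CPM in c-Jun-/- cells, against 428 and 451 CPM in wild-type cells. The sum was higher by 0.30 ± 0.06 (edgeR adjusted p = 2.55e-04) and lost its call with limma on TPM (adjusted p = 0.0586, the highest over the alternatives).

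Shared reads touch these genes unequally. No 75-base stretch was shared among Ifitm1, Ifitm2 and Ifitm3. Ifitm1 and Ifitm3 shared 0.582% and 0.662% of such stretches with other genes, whereas Ifitm2 shared 42.0%, chiefly with pseudogenes such as Gm45717. The expected counts of Ifitm2 were whole in all 4 libraries. Whether those pseudogenes were in the annotation used for counting was not checked. Whole counts therefore cannot tell whether reads from the pseudogenes were assigned to Ifitm2. Across the 37 tested genes of the set, 25 shared under 5% of their stretches.

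**Figure D3:**
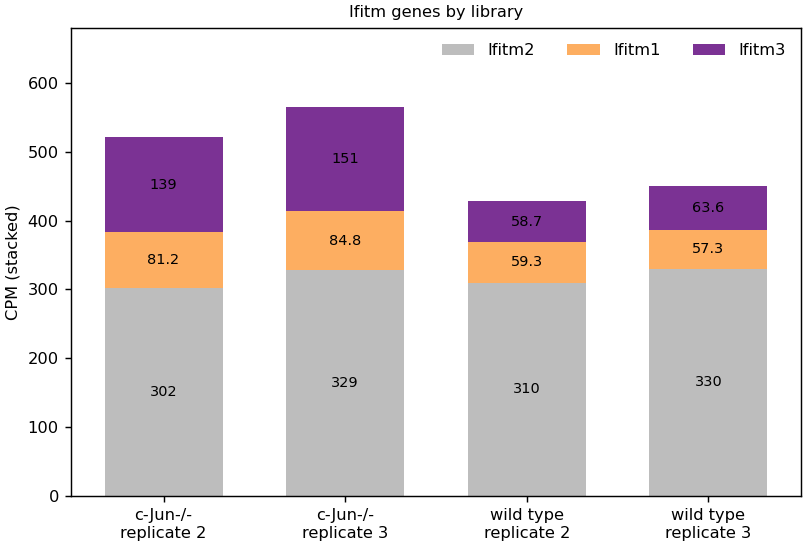
Stacked CPM of Ifitm2, Ifitm1 and Ifitm3 in each library, c-Jun-/- replicates 2 and 3 left of wild-type replicates 2 and 3. The Ifitm2 block is of similar height in all 4 libraries (302 to 330 CPM), and the Ifitm3 block is 139 and 151 CPM in c-Jun-/- cells and 58.7 and 63.6 CPM in wild-type cells.

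Bst2 encodes tetherin, which holds budding virus particles at the cell surface. Bst2 (chr8:71534255-71537456, minus strand) had 88.8 and 80.7 CPM in c-Jun-/- cells, against 53.6 and 53.2 CPM in wild-type cells. The genotypes did not overlap (0.67 ± 0.11, edgeR adjusted p = 4.63e-05). With chromosome 8 genes centred it stood at 0.16 and the call was lost (edgeR adjusted p = 0.425, the highest of its 12 alternatives). The other 11 alternatives kept the call.

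The remaining effectors did not share one sign. Isg15, a ubiquitin-like protein attached to targets during infection, had 14.7 and 11.5 CPM in c-Jun-/- cells, against 9.30 and 6.53 CPM in wild-type cells. It did not pass at 0.74 ± 0.29 (edgeR adjusted p = 0.0762), but did without c-Jun-/- replicate 3 (0.0466) or wild-type replicate 2 (0.0404; 0.0404 to 0.412 over all alternatives). Isg20, an RNA exonuclease, had 8.56 and 6.09 CPM in c-Jun-/- cells, against 15.2 and 11.2 CPM in wild-type cells. It stood at -0.83 ± 0.29, just outside the threshold (edgeR adjusted p = 0.0523), and passed under 4 alternatives, among them without c-Jun-/- replicate 2 (0.0305) and without wild-type replicate 3 (0.0418; 0.0257 to 0.357 over all). Isg15 and Isg20 thus had opposite signs, each without overlap between genotypes.

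The Ifit genes, Mx1, Rsad2 and Oasl1, which interferon is known to induce, were low in both genotypes. Not all such genes were: Isg15 lay between 21.5 and 48.7 TPM over the 4 libraries, and outside the set, named after their values were seen, Gbp2 lay between 204 and 225 TPM, Irgm1 between 127 and 154 TPM and Oasl2 between 38.8 and 53.1 TPM, none of them past the threshold. Ifit1, Ifit2 and Ifit3, which bind viral RNA, had mean levels of 1.47 to 3.45 CPM in c-Jun-/- cells and 1.94 to 3.95 CPM in wild-type cells, with log2 fold changes of -0.29 ± 0.49, 0.0061 ± 0.50 and -0.33 ± 0.69. Ifit3 shares 41.1% of its 75-base stretches with Ifit3b. Mx1, a GTPase that blocks viruses, had 12 and 8 counts in c-Jun-/- cells and 8 and 3 counts in wild-type cells. Rsad2, the enzyme viperin, had 2 and 1 counts in c-Jun-/- cells and 0 and 4 counts in wild-type cells, and Oasl1 had no count in any library. For Mx1, the ratio of summed counts was 1.71 with an interval of 0.782 to 3.96, so a difference was not detectable at this depth.

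Of the 4 ubiquitin and ADP-ribose ligases, Parp14 was higher in c-Jun-/- cells, beside 8.21% of all tested genes. Parp14 (chr16:35832874-35871544, minus strand) attaches ADP-ribose to proteins and had 19.2 and 15.4 CPM in c-Jun-/- cells, against 7.12 and 10.4 CPM in wild-type cells. The log2 fold change was 0.98 ± 0.26 without overlap (edgeR adjusted p = 0.00683). The call was lost under 4 of 12 alternatives: DESeq2, limma on TPM, and without c-Jun-/- replicate 2 or wild-type replicate 2. Over all alternatives the log2 fold change of Parp14 ran from 0.69 to 1.29, and the adjusted p reached 0.240.

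Parp9 and Dtx3l work as a pair and lie near Parp14 on chromosome 16. Parp9 had the highest level of the role, with 35.3 and 31.6 TPM in c-Jun-/- cells and 31.0 and 31.8 TPM in wild-type cells (0.15 ± 0.14). Dtx3l, its ubiquitin ligase partner, stood at 0.31 ± 0.14 (edgeR adjusted p = 0.153) and passed without wild-type replicate 3 (0.0341, the lowest over its alternatives, against a highest of 0.724). The annotated genes overlap by 682 bases on opposite strands and their counts were not whole, so they were also summed, a choice made after the data were seen. The sum was at 0.23 ± 0.10 and did not pass (edgeR adjusted p = 0.133). Trim21, an antibody receptor with ubiquitin ligase activity, stood at -0.11 ± 0.16.

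On the antigen side, the loading factor Tapbp and the proteasome subunits Psmb8 and Psmb10 passed the threshold, while the class I chains B2m, H2-K1 and H2-D1 did not. Of 9 tested genes, Psmb10 was higher in c-Jun-/- cells, and Tapbp and Psmb8 were lower. Over all tested genes, the shares were 8.21% higher and 7.32% lower. Tapbp encodes tapasin, which holds empty class I molecules at the peptide transporter. Tapbp (chr17:33915899-33929292, plus strand) had 222 and 214 CPM in c-Jun-/- cells, against 296 and 310 CPM in wild-type cells. In CPM the libraries of each genotype lay close together, and the level in c-Jun-/- cells was 0.719 times that in wild-type cells (-0.48 ± 0.07, edgeR adjusted p = 3.29e-06). In TPM the c-Jun-/- libraries lay farther apart, at 262 and 223 TPM, against 317 and 333 TPM in wild-type cells. Of 12 alternatives only limma on TPM lost this call (adjusted p = 0.0845, the highest). Tapbp shares 18.6% of its 75-base stretches with other genes, mainly Gm19412, and its counts were not whole.

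Psmb8, Psmb9 and Psmb10 encode the catalytic subunits that turn the proteasome into the immunoproteasome, which cuts proteins into peptides suited to class I. Psmb8 (chr17:34197721-34201454, plus strand) had 30.1 and 28.7 CPM in c-Jun-/- cells, against 38.2 and 43.1 CPM in wild-type cells. It was lower without overlap (-0.46 ± 0.15, edgeR adjusted p = 0.0343). The call was lost under 5 of 12 alternatives, including DESeq2 and limma on TPM. Among these the adjusted p was 0.0837 without c-Jun-/- replicate 2, 0.126 without c-Jun-/- replicate 3 and 0.242 without wild-type replicate 3 (0.0189 to 0.242 over all).

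Psmb10 (chr8:105935735-105938444, minus strand) had 93.9 and 83.3 CPM in c-Jun-/- cells, against 71.6 and 64.9 CPM in wild-type cells. Its log2 fold change was 0.38 ± 0.11 (edgeR adjusted p = 0.0131), and with chromosome 8 genes centred it turned to -0.13 and did not pass (edgeR adjusted p = 0.512, the highest over the alternatives). The call was also lost without c-Jun-/- replicate 2 (adjusted p = 0.211) and without wild-type replicate 3 (0.124). The Psmb10 call was likewise lost with DESeq2 and with limma on TPM. Psmb9 stood at -0.0028 ± 0.31.

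Each immunoproteasome subunit replaces a standard one. The TPM ratio of Psmb8 to Psmb5, the standard subunit it replaces, was 0.338 and 0.366 in c-Jun-/- cells and 0.337 and 0.368 in wild-type cells. Psmb5 itself, a gene outside the set named after its values were seen, was lower in c-Jun-/- cells at -0.36 ± 0.11 (edgeR adjusted p = 0.0206), so the ratio lay in nearly the same range in both genotypes while each of the genes was lower. This Psmb5 call was lost without c-Jun-/- replicate 3 (adjusted p = 0.206) and without wild-type replicate 3 (0.158; 0.0057 to 0.206 over all alternatives). The Psmb5 call was also lost with DESeq2 and with limma on TPM. The ratio of Psmb10 to Psmb7 was 0.551 and 0.434 in c-Jun-/- cells and 0.423 and 0.394 in wild-type cells. Psmb9 reached 0.0280 and 0.0197 of Psmb6 in c-Jun-/- cells and 0.0245 and 0.0216 of it in wild-type cells, the smallest of the 3 ratios.

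Tap1 and Tap2 form the channel that moves peptides into the endoplasmic reticulum. Tap1 had 78.0 and 83.3 CPM in c-Jun-/- cells, against 85.0 and 106 CPM in wild-type cells, and Tap2 had 36.8 and 35.0 CPM in c-Jun-/- cells, against 46.5 and 41.8 CPM in wild-type cells. Neither overlapped between genotypes and neither passed, at -0.25 ± 0.11 (edgeR adjusted p = 0.131) and -0.29 ± 0.14 (0.181). Tap1 passed without wild-type replicate 2 (adjusted p = 0.0136, the lowest over its alternatives, against a highest of 0.792). Psmb9, Tap1, Psmb8 and Tap2 stand side by side on chromosome 17, with 212 bases of overlap between Psmb9 and Tap1 and gaps of 495 and 2072 bases between the next pairs. Summed over their overlap, a choice made after the data were seen, Psmb9 and Tap1 were at -0.23 ± 0.10 (edgeR adjusted p = 0.146, and 0.0254 to 0.777 over the alternatives, the lowest without wild-type replicate 2). Of the 8 genes of the set on chromosome 17, 2 were lower (Tapbp and Psmb8), 6 had a negative fold change, and none was higher by edgeR, DESeq2 or limma. Among these 8, 4 had an unadjusted edgeR p under 0.05, all of them with a negative fold change. Of all 630 tested genes on chromosome 17, 6.19% were lower and 12.2% had an unadjusted p under 0.05 with a negative fold change.

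B2m encodes the light chain shared by all class I molecules and had the highest mean level over the 4 libraries on the antigen side. In wild-type cells alone Tapbp stood higher, with a mean of 325 TPM beside 300.3 TPM for B2m. B2m had 283 and 306 TPM in c-Jun-/- cells, against 320 and 281 TPM in wild-type cells, with a log2 fold change of 0.0093 ± 0.097. The heavy chain H2-K1 had 98.2 and 107 TPM in c-Jun-/- cells, against 109 and 115 TPM in wild-type cells. H2-D1 was listed at only 3.19 and 11.7 TPM in c-Jun-/- cells and 5.50 and 4.54 TPM in wild-type cells. H2-K1 and H2-D1 shared 3.10% and 5.56% of their 75-base stretches with other genes, chiefly other class I genes, and their counts were not whole. The sum of the pair gave -0.07 ± 0.10 (edgeR adjusted p = 0.716). All 15 class I heavy chain genes with counts, summed after the data were seen, gave 0.07 ± 0.08 (edgeR adjusted p = 0.623).

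**Figure D4:**
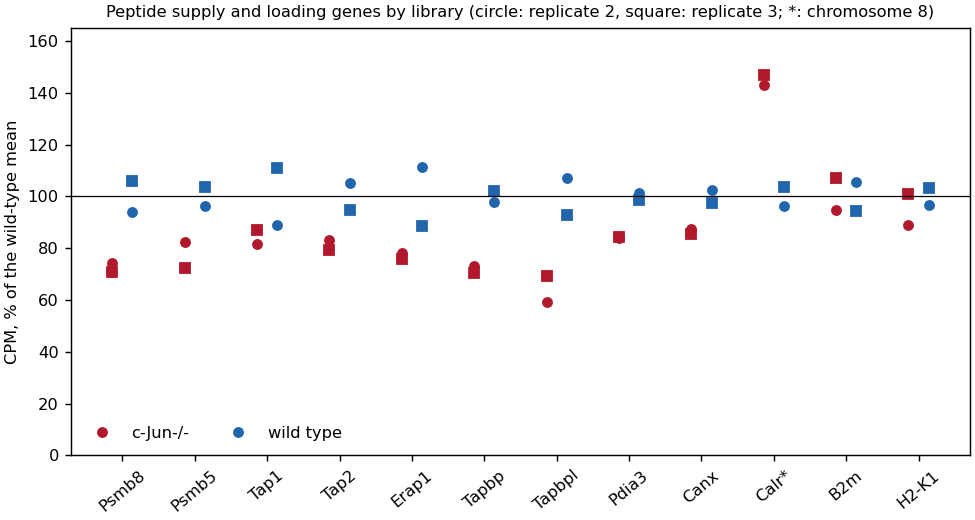
CPM of proteasome, peptide transport and loading genes, and of the class I chains B2m and H2-K1, in each library as a percentage of the wild-type mean, c-Jun-/- left of wild type for each gene. Tapbp stands at 73.1% and 70.5% in c-Jun-/- cells and Calr, on chromosome 8, at 143% and 147%, while B2m and H2-K1 overlap between genotypes.

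Among genes of the same pathways outside the set, 85 of 127 listed genes were tested, and 9 were higher and 9 lower in c-Jun-/- cells (21.2%, beside the same background of 15.5%). The 14 tested genes of signalling and its inhibitors had none past the threshold by edgeR, DESeq2 or limma, with 5 at an unadjusted edgeR p under 0.05, beside 27% of all tested genes. Of 14 sensing genes 2 were higher, of 36 interferon-stimulated effectors 5 were higher and 3 lower, and of 21 genes of class I assembly and its regulators 2 were higher and 6 lower.

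Of the 8 class I assembly genes outside the set that passed, Erap1, Canx, Pdia3 and Tapbpl were among the 6 lower ones and Calr among the 2 higher ones. Erap1, which trims peptides, had 108 and 104 CPM in c-Jun-/- cells, against 153 and 122 CPM in wild-type cells (-0.37 ± 0.10, edgeR adjusted p = 0.00667). Without wild-type replicate 2 the adjusted p of Erap1 was 0.274, the highest over its alternatives (lowest 1.88e-04). The chaperones Canx and Pdia3, which fold class I and many other glycoproteins, were lower at -0.21 ± 0.05 and -0.25 ± 0.05 (edgeR adjusted p = 0.00134 and 1.20e-04). Calr, a chaperone encoded on chromosome 8, was higher at 0.54 ± 0.05 (edgeR adjusted p = 2.66e-09) and stood at 0.02 with that chromosome centred. Tapbpl, a relative of tapasin named after its values were seen, was lower at -0.65 ± 0.19 (edgeR adjusted p = 0.0168) and lost the call without c-Jun-/- replicate 2 (0.143) or wild-type replicate 2 (0.122; 0.0058 to 0.143 over all alternatives).

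In all, of 8 genes of peptide supply and loading (Tap1, Tap2, Tapbp, Tapbpl, Erap1, Calr, Canx and Pdia3) 5 were lower, 1 was higher and none overlapped between genotypes. These 8 were put together after their values were seen, so the count and the lack of overlap depend on that choice and are a description. Left out were, among others, Psmb9, B2m and H2-K1, which overlapped between genotypes, and Psmb8 and Psmb10, which did not. The background is 7.32% of all tested genes lower and 53.9% without overlap. All 5 lower calls were lost with limma on TPM, and that of Tapbpl also with DESeq2.

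Several interferon-stimulated genes outside the set showed wider differences than any tested gene in it. Parp12, an ADP-ribosyltransferase with zinc fingers, had 88 and 85 counts in c-Jun-/- cells, against 1 and 0 counts in wild-type cells. Its summed counts were 173 in c-Jun-/- cells and 1 in wild-type cells, a scaled ratio of 163 with a counting interval of 28.9 to 6472 (edgeR adjusted p = 7.19e-10). Trim25, a ubiquitin ligase that acts on RIG-I signalling, had 14.9 and 14.1 CPM in c-Jun-/- cells, against 0.396 and 0.560 CPM in wild-type cells. Its scaled count ratio was 30.0 with an interval of 12.6 to 93.5 (edgeR adjusted p = 6.81e-09), and both genes kept their calls under all 12 alternatives. Parp12 and Trim25 reached the filter's minimum count of 10 only in the c-Jun-/- libraries and were listed with earlier results known. Their p-values and kept calls are therefore a description and no independent support. The intervals of both ratios cover counting error only. The DNA sensor Aim2 had 10.1 and 12.4 CPM in c-Jun-/- cells, against 2.97 and 4.66 CPM in wild-type cells (1.54 ± 0.36, edgeR adjusted p = 0.00259), and of its 12 alternatives only limma on TPM lost the call (adjusted p = 0.156, the highest).

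Smaller differences went both ways. Samd9l, an antiviral factor, and Pml, which builds nuclear bodies, were higher at 0.57 ± 0.16 and 0.34 ± 0.10 (edgeR adjusted p = 0.0128 and 0.0138). Rnaseh2a, the catalytic subunit of an enzyme that degrades RNA in RNA-DNA hybrids, was higher at 0.49 ± 0.14 (edgeR adjusted p = 0.0130), but lies on chromosome 8 and turned to -0.02 with that chromosome centred. Irgm2, an immunity-related GTPase, and Herc6, which attaches Isg15 in the mouse, were lower at -0.70 ± 0.14 and -0.66 ± 0.18 (edgeR adjusted p = 4.80e-04 and 0.0102). The call of Samd9l was lost without c-Jun-/- replicate 2 (0.0762) or wild-type replicate 2 (0.0696), that of Pml without c-Jun-/- replicate 3 (0.104) or wild-type replicate 2 (0.179), and that of Herc6 without c-Jun-/- replicate 2 (0.125). That of Rnaseh2a was lost without c-Jun-/- replicate 3 (0.0693) or wild-type replicate 2 (0.0542). The calls of Samd9l, Pml, Herc6 and Rnaseh2a were also lost with DESeq2 and with limma on TPM. That of Irgm2 was lost with limma on TPM only. Over all alternatives the adjusted p reached 0.179 for Samd9l, 0.275 for Pml, 0.193 for Herc6, 0.954 for Rnaseh2a and 0.113 for Irgm2.

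**Figure D5:**
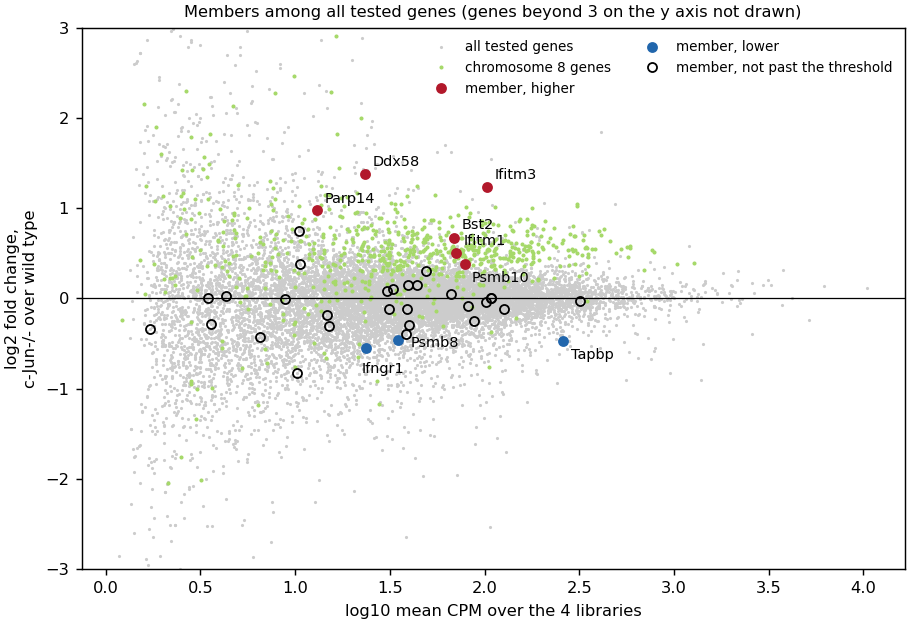
Log2 fold change of c-Jun-/- over wild type against log10 mean CPM for all tested genes (grey, chromosome 8 in green; 60 genes beyond 3 on the vertical axis are not drawn) and for the 37 tested genes of the set (filled where past the threshold, open otherwise). Bst2 and Psmb10 lie in the band of chromosome 8 genes, and Ddx58 and Ifitm3 lie above the other genes of the set.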

How the data were processed

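The authors deposited 1 RSEM gene table for each of the 4 libraries. Per the file headers these hold TPM and the expected count of each gene, an estimate that can be fractional because shared reads are divided among genes. The build was mm10 and the tools bcl2fastq, Bowtie2 and RSEM, per the submitters' processing notes. Tool versions, strandedness and annotation are not given in the sources used, so overlapping and antisense genes cannot be told apart. Of the deposited expected counts above 0, 86.2% to 87.1% per library were whole. The TPM values deposited by the authors are scaled for length and to a common total.

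Of 29267 gene identifiers, 28756 were matched to GENCODE M21 (GRCm38, equal to mm10), and all 43 genes were found. Expected counts were rounded, filtered with edgeR 4.0.16 filterByExpr (minimum count 10, minimum total 15), scaled by TMM (factors 0.988 to 1.0085) and compared with the quasi-likelihood F test in R 4.3.3, with no covariate. The biological coefficient of variation was 6.50%. P-values were adjusted by Benjamini-Hochberg over the 12598 tested genes, and the pipeline was tested on simulated counts. Exact 95% intervals of count ratios are conditional on the summed counts. Shared stretches were found by comparing all 75-base windows of the GENCODE M21 transcripts. Promoters are from RefSeq, and where a gene has several windows the one nearest the GENCODE start was used for positions.

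The genes and the lists were chosen with earlier results of these data known, so a pattern in them is no independent support. Named with values in every library are genes of the set past the threshold, the 3 Ifitm genes, tested genes on chromosome 8 and the gene of each role with the highest mean TPM. Outside the set they are up to 12 genes past the threshold with the smallest p, and 1 further gene that is not reported here. Values in every library of other genes of the set (Tyk2, Ifih1, Isg15, Isg20, Tap1, Tap2, H2-K1, H2-D1 and those below the filter) and of markers were added after they were seen. Of the 131 names listed outside the set, 127 genes were found. Alternatives were RLE scaling, total counts, DESeq2 1.42.0, limma 3.58.1 (trend) on log2(TPM + 1), the replicate number as a block, no filter on low counts or 1 CPM in at least 2 libraries, chromosome 8 genes centred on their median (a shift of 0.51), and leaving out each library. Replicate numbers were not shown to pair the libraries.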

Additional observations from a re-analysis of the deposited data

How the results depend on the processing

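The number of calls depended mainly on the tool, and the cause was not tested. Over all genes, 1034 were higher and 922 lower in c-Jun-/- cells by edgeR, 650 and 473 by DESeq2 and 250 and 170 by limma on log2(TPM + 1). With chromosome 8 genes centred the split was 651 higher and 916 lower. In the set, 6 genes were higher (4 to 8 over all alternatives) and 3 lower, with 1 lower by DESeq2, 0 by limma (4 at an unadjusted p under 0.05) and 5 with the replicate block, and 1 to 3 when a library was left out (1, Tapbp, without c-Jun-/- replicate 3). Of the other pathway genes 9 were higher and 9 lower, with 4 and 4 by DESeq2 and 3 and 0 by limma (15 lower at an unadjusted p under 0.05). The share of all tested genes lower at that unadjusted limma threshold was not computed, so these limma counts have no background. By edgeR, 13.4% of all tested genes were lower at an unadjusted p under 0.05. The summed Ifitm genes stood at 0.25 by limma and did not pass, and at 0.25 to 0.36 without single libraries. Deviations of same-numbered libraries from their genotype mean had a correlation of r = 0.021. With 2 libraries per genotype both pairs give the same r by construction, so this is 1 comparison and not 2. The replicate block, which called 1250 higher and 1127 lower genes, was kept as an alternative only.

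Ifitm3, Ifitm1 and Ddx58 kept their call and direction under all 12 alternatives. With chromosome 8 genes centred Psmb10 turned to -0.13 and Rnaseh2a to -0.021. The other changes of sign were in genes or sums that did not pass in the first place. On total counts without TMM, Irf1 and Ifit2 stood at -0.015 and B2m at -0.012. By limma on TPM, Irf3 stood at -0.098, Irf9 at 0.046, Ifit2 at -0.028, Psmb9 at 0.034, B2m at -0.026 and all class I heavy chains at -0.0086. With single libraries left out, the log2 fold change ran from -0.18 to 0.035 for H2-K1 with H2-D1, from -0.017 to 0.17 for all class I heavy chains, from -0.050 to 0.15 for Ifnar1, from -0.67 to 0.20 for Ifnar2, from -0.19 to 0.077 for Jak1, from -0.062 to 0.078 for Irf1, from -0.080 to 0.24 for Irf3, from -0.26 to 0.052 for Stat2, from -0.094 to 0.69 for Ifih1 and from -0.062 to 0.28 for Eif2ak2. It ran from -0.085 to 0.041 for Ifitm2, from -0.080 to 0.078 for Ifit2, from -1.12 to 0.21 for Ifit3, from -0.23 to 0.020 for Trim21, from -0.36 to 0.25 for Psmb9, from -0.078 to 0.10 for B2m, from -0.17 to 0.016 for H2-K1 and from -0.34 to 0.36 for H2-D1. Leaving out the same replicate number in both genotypes left no residual spread and was not run. Depth limits the genes under about 10 counts per library, such as Mx1, Rsad2 and Dhx58.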

Other observations

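The class I heavy chains outside H2-K1 and H2-D1 did not share one direction. H2-Q6, looked up after the data were seen, had 38.9 and 48.5 CPM in c-Jun-/- cells, against 24.7 and 24.8 CPM in wild-type cells (0.81 ± 0.16, edgeR adjusted p = 3.85e-04). H2-Q4 was also higher, with 13.5 and 11.1 CPM in c-Jun-/- cells, against 5.74 and 7.46 CPM in wild-type cells (0.90 ± 0.30, edgeR adjusted p = 0.0376). H2-T22 was lower, with 20.3 and 24.6 CPM in c-Jun-/- cells, against 35.6 and 30.8 CPM in wild-type cells (-0.57 ± 0.17, edgeR adjusted p = 0.0207). The call of H2-Q4 was lost without c-Jun-/- replicate 2 (adjusted p = 0.254) or wild-type replicate 2 (0.194), and that of H2-T22 without the same libraries (0.207 and 0.149). Over all alternatives the adjusted p reached 0.254 for H2-Q4 and 0.207 for H2-T22. The calls of H2-Q4 and H2-T22 were also lost with DESeq2 and with limma on TPM. The counts of these class I genes were not whole, and the split of reads between them is uncertain.

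Further genes of nucleic acid defence were named after their values were seen. Cgas, the DNA sensor that signals through Tmem173, was below the filter with 15 counts in c-Jun-/- cells and 1 in wild-type cells, a scaled ratio of 14.1 with a counting interval of 2.17 to 595. Zc3hav1, which binds and clears viral RNA, was higher with 76.1 and 87.0 CPM in c-Jun-/- cells, against 67.2 and 60.8 CPM in wild-type cells (0.34 ± 0.11, edgeR adjusted p = 0.0343). Iigp1, an immunity-related GTPase, had 5 counts in c-Jun-/- cells and 32 in wild-type cells (scaled ratio 0.147, counting interval 0.0448 to 0.380, edgeR adjusted p = 0.0202). It reached the filter's minimum count of 10 only in the wild-type libraries. Zc3hav1 and Iigp1 lost their calls with DESeq2 and with limma on TPM, and Zc3hav1 also lost its call on total counts without TMM. Zc3hav1 lost its call without c-Jun-/- replicate 3 (adjusted p = 0.306) or wild-type replicate 3 (0.218), and Iigp1 without c-Jun-/- replicate 2 (0.318), wild-type replicate 2 (0.0542) or wild-type replicate 3 (0.345). Over all alternatives the adjusted p reached 0.325 for Zc3hav1 and 0.345 for Iigp1.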
